A study of Mus musculus with 4 samples.

Results

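Olfr166, Olfr167, Olfr170 and Olfr171 are olfactory receptor genes that lie side by side on mouse chromosome 16, and Lamp3 is the next gene with a probe beside them. These 5 genes were chosen by their gene name in the scanner files, which gave 9 probes among 41174 probes of 27974 genes. The receptors were picked because they had read far higher in the TRAMP prostate, so their genotype differences are given as a description and carry no test. Lamp3 had been included as a neighbour that did not differ. The data went against that label in part, because 3 of its 4 probes were at least 2-fold higher in TRAMP mice in both genotype comparisons. That call was lost for 1 of the 3 under other scalings and for all 3 under 2 other background corrections.

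The study measured prostate RNA of male mice 8 weeks of age on 1-colour (Cy3) Agilent arrays. The groups were C57BL/6 mice after olive oil, C57BL/6 mice after 600 mg/kg γ-TmT (TmT, a tocopherol mixture rich in γ-tocopherol, a form of vitamin E), TRAMP mice after olive oil and TRAMP mice after the same dose of γ-TmT. All mice ate an AIN-76A diet, fasted overnight, were dosed by gavage and were killed with CO2 12 hours later. In TRAMP mice the rat probasin promoter, active in the epithelium of the prostate, drives the SV40 early genes. The labels give 3 mice per group and 1 array per group, and do not say whether an array held RNA of 1 mouse or of a pool. They do not give the genetic background of the TRAMP mice, so the transgene and other differences between the lines cannot be told apart. With 1 array per group no difference between arrays has a replicate check. The 4 arrays shared 1 slide and had the same scan time.

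Olfactory receptors form the largest gene family of the mouse genome and encode membrane-spanning receptors that couple to a G protein. Each olfactory sensory neuron of the nose normally transcribes 1 allele of 1 receptor gene, under a chromatin state that keeps the other clusters silent, and some receptors are also transcribed outside the nose. A receptor's coding sequence typically lies in a single exon. Lamp3 encodes a lysosomal membrane glycoprotein, also called DC-LAMP, known from mature dendritic cells and from type 2 cells of the lung alveolus.

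The probes are shown because they decide which transcripts the values can stand for. Each is 60 bases long, written 5′ to 3′ in the sense of the transcript, and coordinates are those of the files on mm9. The Olfr166 probes lie on the plus strand at chr16:19486994-19487053 (probe 1) and chr16:19487305-19487364 (probe 2). The others lie on the minus strand, Olfr167 at chr16:19515593-19515652, Olfr170 at chr16:19605941-19606000 and Olfr171 at chr16:19625135-19625194.

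Olfr166 probe 1: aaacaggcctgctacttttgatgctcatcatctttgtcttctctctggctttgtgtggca
Olfr166 probe 2: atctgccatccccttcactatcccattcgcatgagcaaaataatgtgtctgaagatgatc
Olfr167: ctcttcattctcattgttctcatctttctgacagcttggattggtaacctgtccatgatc
Olfr170: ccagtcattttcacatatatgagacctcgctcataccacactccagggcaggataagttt
Olfr171: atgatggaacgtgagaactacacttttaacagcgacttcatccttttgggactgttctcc
Lamp3 probe 2: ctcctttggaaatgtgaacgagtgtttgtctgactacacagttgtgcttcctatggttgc

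Olfr166 probe 2 was printed in 10 spots, and the files assign it to the RefSeq transcripts of both Olfr166 and Olfr168, so those 2 genes cannot be told apart by it. Olfr168 and Olfr169 had no probe of their own. The longest run of bases that any member probe shared with a probe of a gene outside the cluster was 17, for Olfr170. The Olfr171 probe starts with the atg at the first base of its transcript. Set against the 50 bases that follow the start of the Olfr170 model in RefSeq (GRCm38), it was identical at 47 of 50 aligned positions (94%), with 19 bases in a row shared, tgagaactacacttttaac. The alignment opened a short gap in the Olfr170 bases at the end of that run, and the probe bases opposite the gap were not counted. Whether Olfr170 RNA adds to the signal of the Olfr171 probe was not tested. The Olfr170 probe lies farther along its transcript, at an offset of 759 bases.

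Lamp3 has 4 probes on the minus strand. Probe 1 lies at chr16:19653772-19653831, and the files assign it to transcripts of Lamp3 and also of Ppid, a peptidyl-prolyl isomerase gene on chromosome 3. Probe 2 spans chr16:19655568-19673497, a stretch of 17930 bases, so its 60 bases cross an exon junction. Probe 3 lies at chr16:19701073-19701132. Probe 4, at chr16:19705010-19705069, comes from a cDNA clone and carries no RefSeq transcript.

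Among the 5 genes the promoter table from RefSeq (GRCm38) held Olfr170 and Lamp3. The Olfr170 promoter is shown because the cluster genes moved together, with TATAAA and AGAACA in capitals. It covers chr16:19606617-19606916 on the minus strand in GRCm38, whose positions differ from those of mm9.

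Olfr170 promoter: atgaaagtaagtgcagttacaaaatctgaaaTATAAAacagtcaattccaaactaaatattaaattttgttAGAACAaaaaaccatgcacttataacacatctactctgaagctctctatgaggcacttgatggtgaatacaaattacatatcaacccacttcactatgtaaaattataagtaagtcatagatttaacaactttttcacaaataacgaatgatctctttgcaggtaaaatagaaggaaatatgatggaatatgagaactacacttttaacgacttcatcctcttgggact

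In this window around the start, TATAAA began at position -219 and AGAACA, a short element bound by the androgen receptor, at -179, both strands having been searched. TATAAA is held by 13.6% of all 32851 promoters of that length and by 41.0% of 948 olfactory receptor promoters. AGAACA is held by 19.0% of all promoters and 31.4% of receptor promoters, and the Lamp3 promoter held 2. Neither promoter held the core motif of the olfactory factor Ebf, the homeodomain cores TAATTA and TAATGA or the GC box GGGCGG. Most receptor promoters lack each of these, which are held by 0.53%, 18.6%, 28.8% and 1.05% of them in that order. These matches describe letters in a window and show no binding.

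Each value is given as an intensity, which is the processed signal of the software after its background correction, on a linear scale, or as a log2 level, which is log2 of that intensity minus log2 of the array's 75th percentile. The percentile was 161 (oil) and 116 (TmT) on the C57BL/6 arrays and 135 (oil) and 70.8 (TmT) on the TRAMP arrays. Spots well above background made up 63.9% to 74.1% of 43379 non-control spots, with the lowest share on the TRAMP TmT array, and no spot was saturated. Where a probe was not well above background on an array, a difference is a bound, set against the lowest signal that counted as well above background there or the probe's own if higher. The software error of a spot, or the SD of the spots for Olfr166 probe 2, follows the ± sign and does not cover differences between mice. The 18 spots of the member probes were spread over rows 9 to 484 of 532 on the array.

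Olfr167 had the largest genotype difference of the members. Its intensity was 2.88 in C57BL/6 after oil, 2.80 in C57BL/6 after TmT, 1266 in TRAMP after oil and 229 in TRAMP after TmT. Both C57BL/6 spots were not well above background, while both TRAMP spots were far above it. The log2 levels of the TRAMP arrays were 3.23 ± 0.14 after oil and 1.69 ± 0.14 after TmT. TRAMP was at least 269-fold higher than C57BL/6 after oil and at least 75.6-fold higher after TmT.

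Olfr171, the receptor gene nearest to Lamp3, showed the same split. Its intensity was 3.32 in C57BL/6 after oil, 1.25 in C57BL/6 after TmT, 530 in TRAMP after oil and 66.1 in TRAMP after TmT, and again neither C57BL/6 spot was well above background. The TRAMP level was at least 112-fold higher after oil and at least 21.8-fold higher after TmT.

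Olfr170 was the receptor probe with a clear signal in the wild-type mice too. Its intensity was 95.1 in C57BL/6 after oil, 59.4 in C57BL/6 after TmT, 2283 in TRAMP after oil and 340 in TRAMP after TmT. After scaling, the log2 levels of the C57BL/6 arrays were -0.76 ± 0.15 and -0.96 ± 0.15, which differ by no more than their spot error, and those of TRAMP were 4.08 ± 0.14 and 2.26 ± 0.14. The genotypes differed by 4.84 ± 0.21 after oil, with TRAMP 28.7-fold higher, and by 3.23 ± 0.21 after TmT, with TRAMP 9.36-fold higher.

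Olfr166 probe 2 could be read in repeated spots on each array. Over its usable spots the intensity ran from 11.1 to 20.9 in C57BL/6 after oil (10 spots), from 8.14 to 13.8 in C57BL/6 after TmT (9 spots), from 177 to 206 in TRAMP after oil (9 spots) and from 34.8 to 44.6 in TRAMP after TmT (10 spots). The spots of the TRAMP arrays thus overlapped neither each other nor those of C57BL/6, and the C57BL/6 arrays overlapped each other. The mean log2 levels were -3.34 ± 0.30, -3.42 ± 0.25, 0.50 ± 0.08 and -0.87 ± 0.12 in the same order. The genotype difference was 3.84 ± 0.31 after oil, or 14.3-fold, and 2.55 ± 0.28 after TmT, or 5.86-fold.

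**Figure D1:**
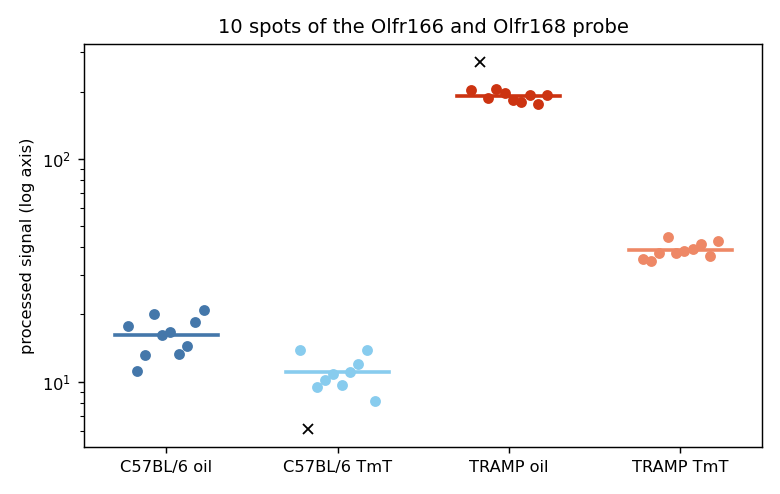
Each point is 1 spot of the probe assigned to Olfr166 and Olfr168, with its processed signal on a log axis for each array, lines mark the mean of the spots used, and crosses mark the spots left out as outliers. Among the spots used, those of TRAMP oil lie between 177 and 206 and those of TRAMP TmT between 34.8 and 44.6, all above the C57BL/6 spots.

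Olfr166 probe 1, which is assigned to Olfr166 alone, moved less. Its log2 level was -3.00 ± 0.18 in C57BL/6 after oil, -2.43 ± 0.17 in C57BL/6 after TmT, -1.78 ± 0.15 in TRAMP after oil and -2.24 ± 0.19 in TRAMP after TmT. TRAMP was higher by 1.22 ± 0.23 after oil, and after TmT the difference of 0.18 ± 0.25 was within the spot error. The probes of Olfr166 therefore disagree in size, and the value of a gene below rests on its brightest probe, which is probe 2. Probe 2 is the brightest through the TRAMP arrays. In C57BL/6 it was below probe 1, at -3.34 against -3.00 after oil and -3.42 against -2.43 after TmT. This rule thus took the probe with the larger genotype difference, and the counts by gene below inherit that choice. Averaged over both probes, Olfr166 was higher in TRAMP by 2.53 after oil and 1.37 after TmT.

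**Figure D2:**
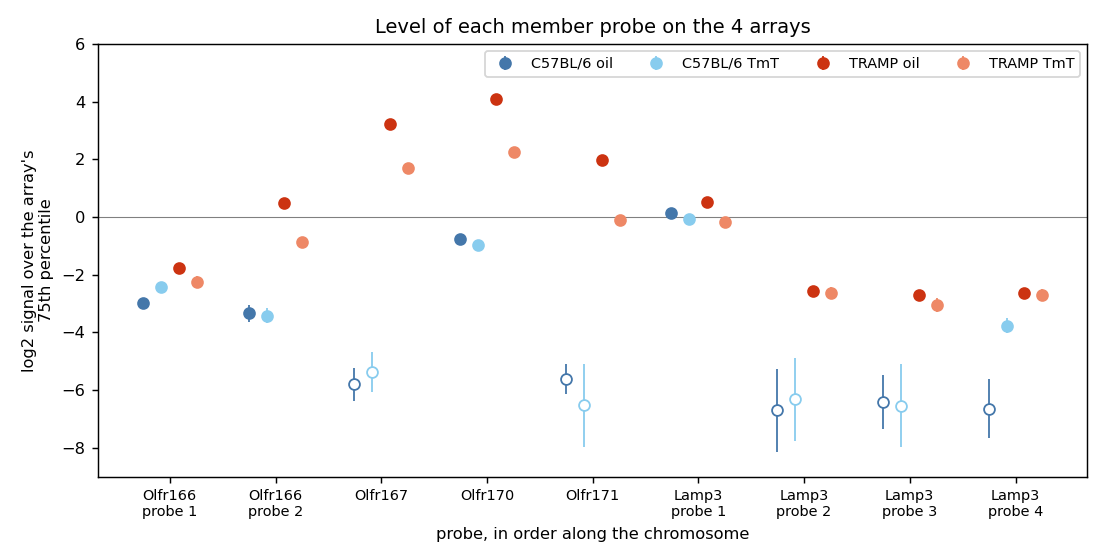
The log2 level of each member probe is plotted for the 4 arrays, in order along the chromosome, with spot errors as bars and open symbols where the probe was not well above background. For Olfr167, Olfr170, Olfr171 and Olfr166 probe 2 the TRAMP oil array is highest, the TRAMP TmT array second and both C57BL/6 arrays lie below. Lamp3 probe 1 stays between -0.18 and 0.52.

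Lamp3 probes 2 and 3 were read above background in TRAMP mice only. Probe 2, on the exon junction, had an intensity of 1.54 in C57BL/6 after oil, 1.45 in C57BL/6 after TmT, 22.5 in TRAMP after oil and 11.5 in TRAMP after TmT. That made TRAMP at least 4.78-fold higher after oil and at least 3.78-fold higher after TmT. Probe 3 had an intensity of 1.88 in C57BL/6 after oil, 1.24 in C57BL/6 after TmT, 20.5 in TRAMP after oil and 8.55 in TRAMP after TmT, at least 4.35-fold and 2.82-fold higher in TRAMP. These signals are low, and the bounds start from spots close to background. With the local background subtracted and an offset of 50 added, which compresses low signals, the bounds of probes 2 and 3 fell under 2-fold, to a log2 value of 0.58 and 0.60 after oil and 0.77 and 0.61 after TmT.

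Lamp3 probe 4 had an intensity of 1.61 in C57BL/6 after oil, where it was not well above background, 8.48 in C57BL/6 after TmT, 21.9 in TRAMP after oil and 10.8 in TRAMP after TmT. TRAMP was at least 4.65-fold higher after oil and 2.09-fold higher after TmT, a log2 difference of 1.07 ± 0.34. The value after TmT fell under 2-fold with quantile scaling (0.94) and median scaling (0.98), and with the offset of 50 probe 4 was at 0.70 after oil and 0.51 after TmT. Probe 1 differed from the rest of the gene. Its intensity was 176 in C57BL/6 after oil, 110 in C57BL/6 after TmT, 194 in TRAMP after oil and 62.5 in TRAMP after TmT, with a genotype difference of 0.40 ± 0.20 after oil and -0.11 ± 0.21 after TmT.

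The 2 probes named for Ppid alone, whose transcript is also listed for Lamp3 probe 1, differed between the genotypes by 0.19 and 0.05 after oil and by -0.30 and 0.27 after TmT. What share of the probe 1 signal came from Ppid was not tested. Since probe 1 was the brightest, Lamp3 as a gene counted as not different, whereas the mean over its 4 probes was higher in TRAMP by 3.06 after oil and 2.04 after TmT. That mean takes spots below background at their own values and is therefore no measured size.

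By brightest probe, 4 of 5 genes were at least 2-fold higher in TRAMP after oil, where 8.9% of all comparable genes were. The same 4 were after TmT, where 10.1% of all comparable genes were. A gene counted as comparable where either array read it well above background, even if no bound could be set. Of all genes 3.57% were higher in both comparisons. None of the 5 was at least 2-fold lower in either, where 8.71% of all genes were after oil and 6.4% after TmT. Because the members were chosen on these comparisons, the counts are read against nothing. The median over the 4 receptor genes, with bounds at their limit, was 5.83 after oil and 3.84 after TmT, beside -0.06 and -0.01 for all genes.

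Along the chromosome, 7 of the 9 member probes were at least 2-fold higher in TRAMP in both comparisons, 1 of them on the plus strand and 6 on the minus strand. Over all probes comparable in both comparisons that share was 3.58%, and nothing is read from the contrast, since the genes were chosen on it. The 7 probes ran from Olfr166 probe 2 to Lamp3 probe 4, chr16:19487305-19705069, a distance of 218 kb. The exceptions were Lamp3 probe 1 inside that distance and Olfr166 probe 1, which lies 0.252 kb before it and differed by 1.22 after oil and 0.18 after TmT. At the upper end the calls of the 3 Lamp3 probes depend on the scaling or background correction. At the lower end Olfr166 probe 2 fell just under 2-fold after TmT (0.98) with the offset of 50. Under the normexp background correction, which gave almost constant values on the TmT arrays, the receptor probes were at 0.04 to 0.06 after TmT.

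The nearest genes outside the 5 carried little signal. On the side of lower coordinates the next gene with a probe was the receptor gene Olfr165, 79.8 kb away, followed by Olfr164, and neither was well above background on any array. On the other side lay B3gnt5, which encodes a glycosyltransferase of glycolipid synthesis, 65.3 kb away and also not above background on any array. The direction of these 3 genes could not be measured.

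Beyond these the nearest genes on the lower side were AK079984, not above background on any array, 2010309G21Rik, higher in TRAMP by 0.88 after oil and 0.90 after TmT, and the transcript ENSMUST00000103752, higher by 1.08 and 0.43. On the upper side A930003A15Rik had a value after oil alone, Klhl6, a BTB and kelch family gene of B cells, differed by -0.78 after oil and 0.64 after TmT, and NAP065259-1 differed by -0.84 and -0.98. TC1716094 differed by 0.34 after oil and -0.22 after TmT. None of these was 2-fold different in the same direction in both comparisons.

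Within 1 Mb of the receptor span lay 45 other genes, 11 of them above background on no array and 32 with a value in both comparisons. Of those 32, 5 were at least 2-fold different in the same direction in both (15.6%), beside 5.43% of all genes. Higher in TRAMP were Igl-V1, an immunoglobulin light chain gene, the replication gene Cdc45l and the transporter gene Abcc5, and lower were Klhl24 and Yeats2. Igl-V1 was higher by 3.45 after oil and 2.66 after TmT. Abcc5 and Klhl24 each had another probe that differed in the opposite direction after oil. By brightest probe each of the 4 receptor genes exceeded Igl-V1 after oil, and all but Olfr166 did so after TmT.

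**Figure D3:**
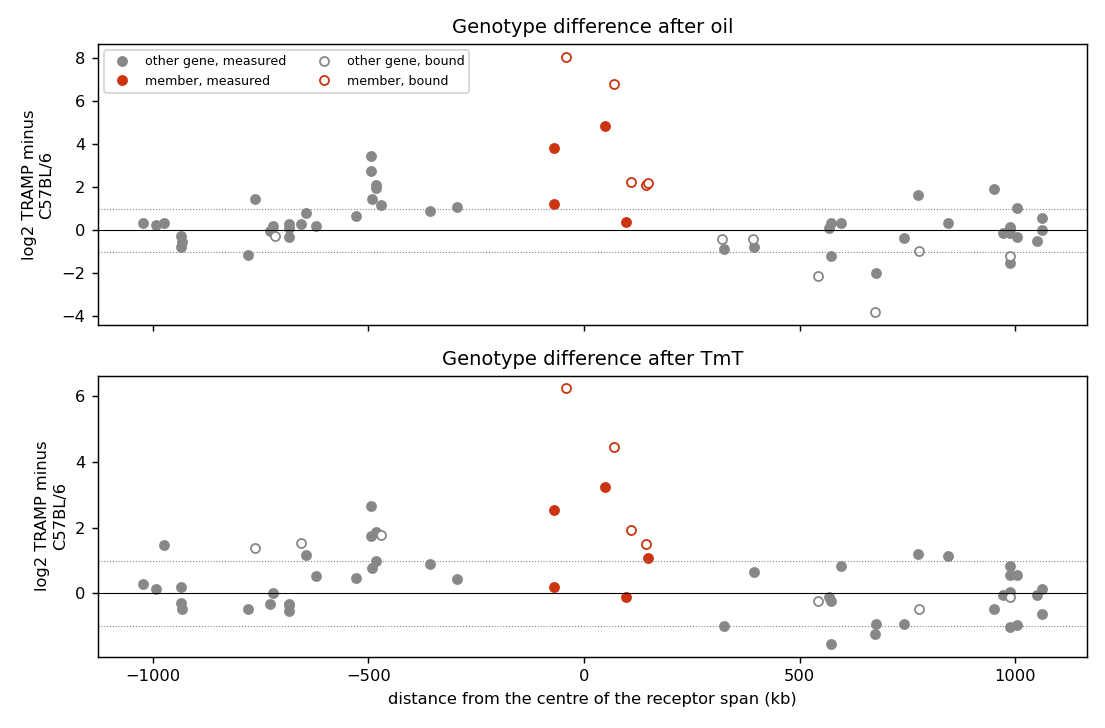
The log2 difference between TRAMP and C57BL/6 is plotted for each probe within 1 Mb of the receptor span against its distance in kb from the centre of the span, after oil and after TmT, with open symbols for bounds and dotted lines at 2-fold. The members, in red, reach at least 8.07 after oil at the centre. The grey points near -494 kb are mainly the immunoglobulin light chain gene Igl-V1, at up to 3.45.

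Few other members of the receptor family were higher in both comparisons. Of 907 other olfactory receptor genes, 533 were above background on no array, and 24.1% to 39.0% were above it on a given array, compared with 63.8% to 73.3% of all genes. In both genotype comparisons 290 were comparable, some of them without a bound and so without a value. Of these, 5 were at least 2-fold higher in TRAMP in both (1.72%) and 1 was lower. The median difference of the other receptor genes with a value was -0.20 after oil and 0.01 after TmT. On chromosome 16 itself, 25 other receptor genes were on the array, 8 were comparable in both comparisons and 0 were higher in both.

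The 5 were Olfr141, Olfr1066, Olfr1203 and Olfr1032 on chromosome 2 and Olfr149 on chromosome 9. Olfr141 came closest to the cluster, with log2 levels of -2.16 in C57BL/6 after oil, -2.39 in C57BL/6 after TmT, 0.25 in TRAMP after oil and -0.90 in TRAMP after TmT. It was higher in TRAMP by 2.41 after oil and 1.49 after TmT. By brightest probe that was smaller than Olfr166, the lowest of the cluster genes, at 3.84 and 2.55. Olfr166 probe 1, at 1.22 and 0.18, lay below Olfr141, as did the mean over both Olfr166 probes after TmT (1.37). Olfr1066 was higher by 1.39 after oil and at least 1.73 after TmT, and Olfr149 by 1.71 and 1.02. Olfr1203 and Olfr1032 were not above background in C57BL/6 mice, and their bounds ran from 1.11 to 1.66. Olfr78 and Olfr558, receptors described in the prostate, did not rise clearly above background in TRAMP mice on either array. In C57BL/6 mice Olfr78 was above background on both arrays and Olfr558 on the oil array. Their genotype differences after oil were bounds of -0.34 and -0.55, lower in TRAMP, and neither had a value after TmT.

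**Figure D4:**
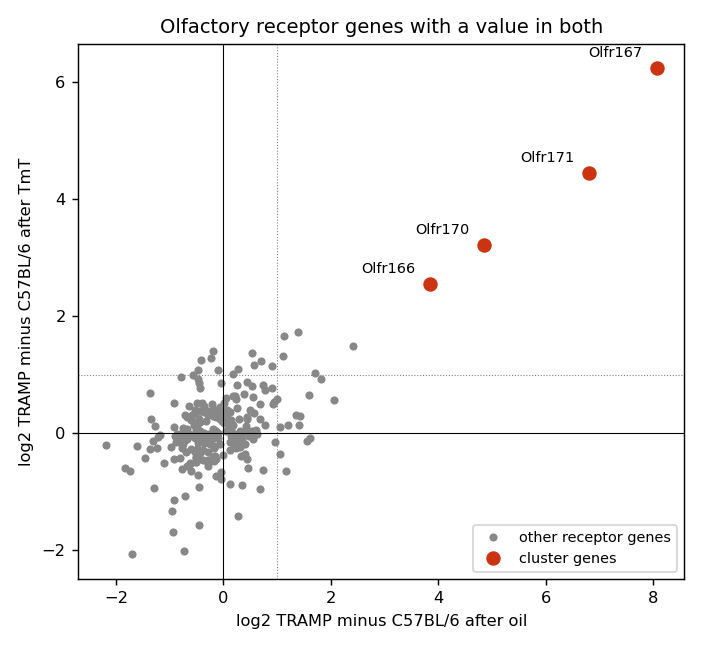
Each point is an olfactory receptor gene with a value in both comparisons, measured or as a bound, placed by its log2 difference between TRAMP and C57BL/6 after oil and after TmT, with dotted lines at 2-fold. The 4 cluster genes stand at the upper right, from 3.84 to 8.07 after oil, and the highest of the others after oil is Olfr141 at 2.41. Olfr166 is placed by its probe 2.

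Genes of the odour signalling machinery were measured on the same arrays. Of 18 markers of olfactory sensory neurons, 16 were on the array, 10 were above background on all 4 arrays and 4 (Cngb1, Rtp1, Rtp2 and Stoml3) on none. Among 11 comparable in both comparisons 0 were at least 2-fold higher in TRAMP in both and 1 was lower, the adhesion gene Ncam2. They include Lhx2, for which no bound could be set after TmT. With 3.57% of all genes higher in both, a count of 0 of 11 does not set the list apart. In 1 comparison alone, the homeobox gene Lhx2 was at least 1.94 higher and the G protein subunit gene Gng13 1.34 higher in TRAMP after oil. After TmT alone, the transcription factor gene Ebf1 was 2.37 higher and the exchanger gene Slc24a4 1.19 higher in TRAMP, while Gnal differed by -1.13. Ebf1 differed by -0.78 after oil. Omp, the olfactory marker protein, differed by -0.43 after oil and -0.48 after TmT, and the adenylyl cyclase gene Adcy3 by 0.21 and 0.39. Rtp1 and Rtp2 carry odorant receptors to the cell surface in the nose. The summed signal of the list, in multiples of each array's 75th percentile, was 4.64 and 7.13 in C57BL/6 and 5.70 and 6.72 in TRAMP, after oil and TmT. Of 134 vomeronasal receptor genes 99 were above background on no array and 0 of 25 comparable in both were higher in both. Of 6 taste and trace amine receptor genes 5 were on the array, and 0 of the 3 with both values were higher.

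Markers of the cells known to make Lamp3 were also counted. Of 10 mature dendritic cell markers 4 (Ccr7, Ccl22, Cd40 and Il12b) were above background on no array, and 0 of 5 with both values were at least 2-fold higher in TRAMP in both. The chemokine gene Ccl17 differed by 0.15 after oil and 0.35 after TmT. The summed signal of that list was 1.49 and 1.19 in C57BL/6 and 1.68 and 1.60 in TRAMP. Of 5 alveolar markers 0 of the 4 comparable in both were higher in both, though Sftpb had no value after TmT. Sftpa1 was above background on no array, and Sftpd was at least 2.20 higher in TRAMP after TmT and 0.26 higher after oil. Lists this short cannot be set apart from the 3.57% of all genes. The sister genes Lamp1 and Lamp2, whose proteins coat the lysosome, differed by 0.07 and 0.21 after oil and by -0.55 and 0.40 after TmT.

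The arrays carried prostate RNA, since 9 of 9 prostate markers were above background on all 4. Of these 3 were lower in TRAMP in both comparisons, among them the secretory genes Pbsn (-2.91 and -2.05) and Tgm4 (-4.06 and -1.58), and 0 were higher. The summed signal of the list was 1089 and 1380 in C57BL/6 and 502 and 844 in TRAMP. The part of cell composition in the cluster's difference was not tested, and in tissue RNA more cells of a type and more RNA per cell cannot be told apart.

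The treatment contrast was not used to choose the genes. In C57BL/6 mice TmT left the 2 receptor genes that could be measured near their oil level, with a difference of -0.08 ± 0.39 for Olfr166 and -0.20 ± 0.21 for Olfr170. Olfr166 probe 1 differed by 0.57 ± 0.25. Olfr167 and Olfr171 had no value there because neither array was well above background. Of the Lamp3 probes, probe 1 differed by -0.20 ± 0.21 and probe 4 was at least 2.09-fold higher after TmT. On the same arrays 3.66% of all genes were lower by 2-fold or more and 3.9% were higher.

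In TRAMP mice the 4 receptor genes were all lower after TmT than after oil. Olfr166 differed by -1.37 ± 0.14, or 2.59-fold lower, Olfr167 by -1.54 ± 0.20 and Olfr170 by -1.82 ± 0.20. Olfr171 differed the most, by -2.07 ± 0.21, or 4.21-fold lower. By brightest probe all 4 were thus at least 2-fold lower, where 5.29% of all genes were and 8.66% were at least 2-fold higher. The median of the 4 was -1.68 beside 0.05 for all genes. With the mean over both its probes Olfr166 was at -0.92, and with the offset of 50 at -0.97, both under 2-fold. Among 18601 genes with a value, measured or as a bound, 95 were as low as or lower than Olfr171. For Olfr166 the number was 427, each count including the gene itself. The TRAMP oil array entered both this difference and the choice of the genes, so the 2 are not independent.

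The other probes moved less. Olfr166 probe 1 differed by -0.47 ± 0.24, and the Lamp3 probes differed by -0.70 ± 0.21, -0.05 ± 0.28, -0.34 ± 0.30 and -0.09 ± 0.27, of which the last 3 were near their spot error. The other olfactory receptor genes with a value had a median of 0.34, out of 292 that were comparable. The TRAMP arrays also differed in prostate markers, with Tgm4 differing by 2.61 between TmT and oil, and in the software's multiplicative detrending, which had not been applied to the TRAMP TmT array. The part of these in the cluster's difference was not tested.

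**Figure D5:**
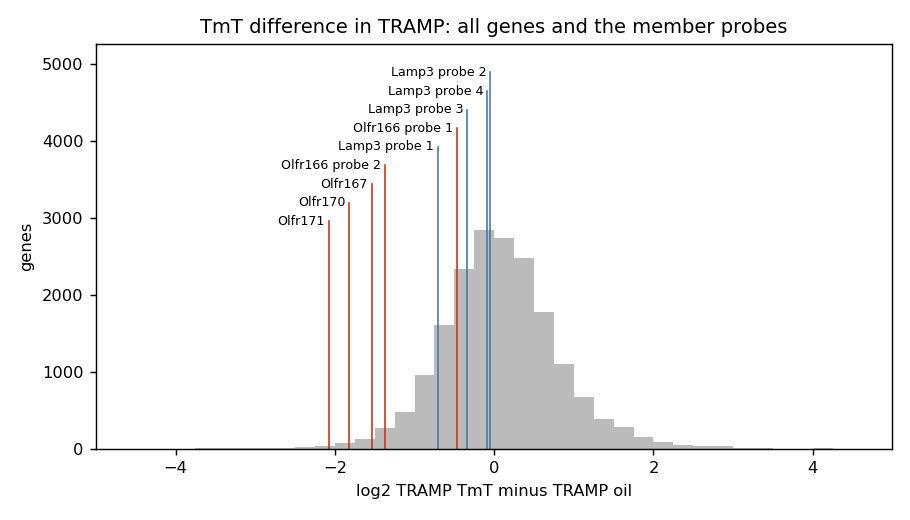
Grey bars count genes by their log2 difference between TmT and oil in TRAMP mice, measured or as a bound. Lines mark the member probes, receptors in red and Lamp3 in blue. The receptor lines lie between -2.07 and -0.47, to the left of most genes, and the Lamp3 lines between -0.70 and -0.05.

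Across both genotypes the TmT difference did not pass the threshold for any member. In an additive limma fit of genotype and treatment over 19921 genes, with Benjamini-Hochberg adjustment over all of them, the TmT difference was -1.50 ± 0.40 (SE) for Olfr171 (unadjusted p = 0.0130, adjusted p = 0.775). It was -1.01 ± 0.47 for Olfr170 (adjusted p = 0.775), -0.73 ± 0.42 for Olfr166 (adjusted p = 0.775) and -0.55 ± 0.54 for Olfr167 (adjusted p = 0.832) by the same limma fit. Lamp3, by its probe 1, was at -0.45 ± 0.33 (adjusted p = 0.803 by limma). Of all genes limma called 0 (0%), with 1224 at an unadjusted p under 0.05. Because the interaction is the 1 residual degree of freedom of this fit, whether the TmT effect differed between the genotypes could not be tested. The fit took the C57BL/6 values of Olfr167 and Olfr171 as measured, below background. Both genes passed its background filter through the TRAMP arrays alone. The TRAMP oil array entered both the fit and the choice of the genes. The p-values of the receptors are therefore not independent of that choice, and nothing is read from them.

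After each gene's mean over the 4 arrays was subtracted, the median profile of the receptor genes was -2.48 in C57BL/6 after oil, -2.96 in C57BL/6 after TmT, 3.73 in TRAMP after oil and 1.79 in TRAMP after TmT. The largest departure of a receptor gene from it on any array was 0.84 for Olfr170, 1.00 for Olfr171, 1.45 for Olfr166 and 1.77 for Olfr167. Among 19916 other genes, the nearest by the same measure was Casc5, a kinetochore gene, at 0.97. It was followed by the chromatin remodelling helicase gene Hells at 1.22, the mitotic helicase gene Ercc6l at 1.25, the checkpoint gene Clspn at 1.40 and Neil3, which encodes a DNA glycosylase, at 1.41.

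The next were the kallikrein gene Klk1b24 at 1.42, Tcf19 at 1.42, AK045293 at 1.47, Fignl1 at 1.60 and Atp13a4 at 1.63, the last also on chromosome 16 but far from the cluster. Casc5 was above background on neither C57BL/6 array and was at least 5.12 higher in TRAMP after oil and 4.11 after TmT on the log2 scale, and its TmT difference in TRAMP was -0.72. Klk1b24, measured on all 4 arrays, was higher in TRAMP by 3.88 after oil and 3.01 after TmT and differed by -1.18 between TmT and oil in TRAMP. The likeness was taken over 4 arrays and includes the genotype difference that chose the receptors. It took values below background as measured, among them those of Olfr167 and Olfr171 in C57BL/6. Ercc6l, Clspn, Tcf19 and AK045293 were also above background on neither C57BL/6 array. Hells, Neil3 and Atp13a4 were above it in C57BL/6 after oil alone, so the order of these genes rests partly on signals near background.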

How the data were processed

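Prostate RNA was measured in 4 groups with 1 array each. The values are the linear intensity of each spot (processed signal) as deposited, corrected for background and detrended by Agilent Feature Extraction 10.2.1.3 with mm9 probe positions, per the file headers. The authors' deposited value table held the same intensity for all 45018 features of each array. Flags for background, saturation and outlier spots are other columns of the same files, per the file headers.

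Control and outlier spots were left out, each array was scaled to its 75th percentile on the log2 scale, and repeated spots were averaged per probe. A gene is a gene name in the files, represented by its probe with the highest mean over the 4 arrays. The number of arrays limits the precision. Among 245 probes printed in 10 or more spots, the median SD within an array was 0.13 to 0.24 log2 units. Treatment was fitted in R 4.3.3 with lmFit and eBayes of limma 3.58.1 (genotype plus treatment, Benjamini-Hochberg threshold 0.05), and the fit was tested on simulated data. It covered genes that 2 or more arrays read clearly over background.

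The members, gene lists, comparisons and alternatives were chosen with earlier results of these data known. Genes named are the members, receptor genes within 1 Mb, the 5 nearest other genes on each side, the 10 genes nearest in profile, members of fixed lists and other receptor genes at least 2-fold higher in both genotype comparisons. Of the fixed lists of 10 genes or fewer, not every member is printed, and 1 marker is not reported here. Promoter sequences and the transcript models they follow are from RefSeq (GRCm38).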

Additional observations from a re-analysis of the deposited data

How the results depend on the processing

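Quantile and median scaling, the signal before detrending and outlier spots kept left each of the receptor medians of the 4 comparisons within its spot error. The deposited table holds the same values. With the signal before detrending, each of the 4 receptor genes moved past its own spot error for TmT in TRAMP, which the median does not show. Olfr170 went from -1.82 to -1.50, while Olfr166, Olfr167 and Olfr171 went lower, to -1.56, -1.84 and -2.30. The mean over probes could move only Olfr166 among the receptors, since each of the others has a single probe. It lowered the Olfr166 genotype difference to 2.53 after oil and 1.37 after TmT. Olfr166 is the smallest of the receptor differences there and for TmT in TRAMP, so those medians could not show it. For TmT in C57BL/6 the median went from -0.14 to 0.02. Of 116 values of single genes that an alternative could move, 79 stayed within their spot error and 37 moved further. The sign turned in 9, none of which had been 2-fold or more. With the mean over probes Lamp3 turned from -0.11 to 2.04 for the genotype after TmT and from -0.20 to 0.73 for TmT in C57BL/6. The normexp correction gave almost constant values on both TmT arrays (a 5th to 95th percentile width of 0.56 and 0.04 log2 units, 4.57 or more on the oil arrays). Under it the median of all spots shifted by 1.24 and 1.18 between TmT and oil in C57BL/6 and TRAMP, and limma called 14873 genes. The receptor medians were then 3.79 for the genotype after oil, 0.049 for the genotype after TmT, 1.07 for TmT in C57BL/6 and -2.45 for TmT in TRAMP, where Olfr166 was at -0.52. TmT in C57BL/6 then turned to 1.54 for Olfr166 and 0.60 for Olfr170, and Lamp3 probes 2 to 4 fell under 2-fold in both genotype comparisons. Chosen after seeing the data, subtraction of the local background with an offset of 50, which compresses low signals, gave 3.86 and 1.98 for the genotype medians, 275 genes called by limma and none of the receptors. With the signal before detrending limma called 2 genes. The 5 neighbouring genes different in both comparisons numbered 0 under normexp, 2 under the subtraction, 3 with the mean over probes, 1 at 3-fold and 9 within 5 Mb. The 5 other receptor genes higher in both numbered 0 under normexp, 0 under the subtraction, 0 at 3-fold and 15 with no background filter. No paired analysis was possible because each group has 1 array and the groups share a single replicate number. For the same reason no array could be left out. The cause of these changes was not tested. Low signals limit Olfr167, Olfr171 and Lamp3, whose C57BL/6 values are mostly bounds.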

Other observations

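Among the genes within 1 Mb of the cluster that were higher in TRAMP in both comparisons, an antibody gene differed the most. Antibody genes elsewhere were looked at for that reason, after their values were seen. Igl-V1, an immunoglobulin light chain gene on chromosome 16, had log2 levels of -2.66 in C57BL/6 after oil, -1.04 in C57BL/6 after TmT, 0.79 in TRAMP after oil and 1.61 in TRAMP after TmT. Igj, which encodes the joining chain on chromosome 5, was higher in TRAMP by 2.25 after oil and 3.70 after TmT. Igh-2, a heavy chain gene on chromosome 12, was higher by 3.45 after oil and 4.67 after TmT. In TRAMP mice all 3 were higher after TmT than after oil, by 0.83, 0.40 and 1.52, whereas the 4 receptor genes were lower. For Igl-V1 this rests on its brightest probe, since 2 of its other probes differed by -0.12 and -0.06.

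Olfr141 on chromosome 2, like the cluster genes, was highest in TRAMP after oil and second in TRAMP after TmT. Its TmT difference in TRAMP was -1.15, beside a median of 0.34 for the other olfactory receptor genes.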
